A study of Mus musculus with 3 samples.

Results

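The genes described are those that carry peptides from the cytosol to the cell surface on major histocompatibility complex (MHC) class I molecules: the heavy chain genes H2-K1 and H2-D1, the light chain gene B2m, the peptide transporter genes Tap1 and Tap2, the tapasin gene Tapbp, the inducible proteasome subunit genes Psmb8, Psmb9 and Psmb10, and the transactivator gene Nlrc5. They were chosen by name, all probes carrying these symbols were taken, and all 10 genes were present, with 11 probes, among 17349 genes named on the array and 35226 probes in all. The tissue was sinonasal mucosa, which lines the nasal cavity and sinuses, of C57BL/6 mice aged 6 to 8 weeks. Control_WT stands for wild-type mice without disease, ECRS_WT for wild-type mice given eosinophilic chronic rhinosinusitis of the allergic kind, and ECRS_KO for mice with the same disease that lack CC10, the club cell secretory protein encoded by Scgb1a1. There was no group of healthy knockout mice among the arrays analysed. Equal amounts of RNA of 5 mice were pooled per group and each pool was hybridised to 1 Illumina bead array, so that no value has a replicate, an error or a p-value, and precision is limited by the number of arrays.

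MHC class I molecules show fragments of a cell's own proteins, and of any virus inside it, to CD8 T cells. Proteasomes cut the proteins, the Tap1 and Tap2 transporter moves the peptides into the endoplasmic reticulum, tapasin holds the transporter and the empty class I molecule together while peptide is loaded, and the heavy chain leaves for the surface only with β2-microglobulin. Nearly all nucleated cells do this at some level, and interferons, above all interferon gamma, raise the whole set through factors such as Irf1 and Nlrc5. Interferon gamma also exchanges the constitutive catalytic subunits of the proteasome for Psmb8, Psmb9 and Psmb10, which form the immunoproteasome of leukocytes and inflamed tissue.

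The promoters of these genes are shown because the genes share control elements there. RefSeq's table of assembly GRCm38.p6 held a window from 250 bases before to 50 bases after a gene's start for 8 of the 10 genes. Each is written 5′ to 3′ on the gene's strand, and capitals mark matches on either strand to short motifs: GAANNGAAA or GAAANNGAA (the interferon-stimulated response element type), GGGGATTCC (the NF-κB type), TGACG (the core of the X2 and cyclic AMP response elements), CCAAT (the Y box type) and TTCNNNGAA (the gamma-activated site type). The H2-K1 window lies at chr17:34000284-34000583 on the minus strand, that of H2-D1 at chr17:35262844-35263143 on the plus strand, that of B2m at chr2:122147437-122147736 on the plus strand and that of Tap1 at chr17:34187306-34187605 on the plus strand.
H2-K1: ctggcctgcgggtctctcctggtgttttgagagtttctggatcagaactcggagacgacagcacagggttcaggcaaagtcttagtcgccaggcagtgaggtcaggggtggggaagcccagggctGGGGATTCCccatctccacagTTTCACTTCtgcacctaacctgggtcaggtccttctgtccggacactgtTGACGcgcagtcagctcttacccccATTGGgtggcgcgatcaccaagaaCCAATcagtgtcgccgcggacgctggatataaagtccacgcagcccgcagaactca
H2-D1: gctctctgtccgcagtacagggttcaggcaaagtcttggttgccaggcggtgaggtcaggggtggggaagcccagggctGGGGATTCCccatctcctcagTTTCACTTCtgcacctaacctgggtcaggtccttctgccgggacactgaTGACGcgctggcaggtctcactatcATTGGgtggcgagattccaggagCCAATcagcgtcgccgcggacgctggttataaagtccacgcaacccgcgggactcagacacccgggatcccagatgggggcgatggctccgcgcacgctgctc
B2m: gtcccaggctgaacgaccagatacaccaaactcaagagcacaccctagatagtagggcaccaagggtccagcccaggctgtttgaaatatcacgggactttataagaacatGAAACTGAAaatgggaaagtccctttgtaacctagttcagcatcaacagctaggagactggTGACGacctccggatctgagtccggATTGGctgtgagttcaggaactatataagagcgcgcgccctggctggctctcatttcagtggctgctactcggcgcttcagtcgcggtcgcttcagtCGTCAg
Tap1: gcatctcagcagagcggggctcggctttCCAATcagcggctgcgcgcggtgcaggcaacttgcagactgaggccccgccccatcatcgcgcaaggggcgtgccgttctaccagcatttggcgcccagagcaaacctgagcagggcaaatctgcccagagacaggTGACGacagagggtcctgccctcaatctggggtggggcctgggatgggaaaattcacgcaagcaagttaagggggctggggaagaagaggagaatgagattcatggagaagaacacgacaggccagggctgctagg
The H2-K1 and H2-D1 windows aligned over 242 columns with 89.7% identical bases and hold the same series of matches: the NF-κB type, the interferon type, TGACG and then 2 CCAAT boxes. The NF-κB type motif was in 0.259% of 27025 windows, 1 for each gene in the table, and that motif together with either interferon type motif was in 17 windows. The NF-κB type motif was 1 fixed string without open letters (N), so these low counts do not give how common NF-κB sites are. TGACG was found in 5 of the 8 windows (H2-K1, H2-D1, B2m, Tap1 and Psmb9), against 20.5% of all windows, and CCAAT in those 5 and in Tapbp, against 37.7%. Either interferon type motif was found in H2-K1, H2-D1 and B2m and in 15.0% of all windows, and the gamma-activated site type was found in Psmb8 and in 8.36% of all windows. Psmb9 and Tap1 are transcribed away from each other, and their windows share 275 bases, so that the matches in the Tap1 sequence are also those of Psmb9. The Psmb10 window held no match. These are matches of letters and say nothing of binding.

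Signals were corrected for background, quantile normalised over the 3 arrays and are given as levels on the log2 scale. Detection required a detection p-value below 0.01. Genes whose probe met this on at least 1 array of a pair count as measured there, and a difference of 2-fold or more counts as a call. The arrays differed in brightness, with mean signals from 295 (Control_WT) over 373 (ECRS_WT) to 465 (ECRS_KO). Scgb1a1 went against the labels: its 1 probe gave a signal of 3.32 in the healthy wild-type pool, where it was not detected, 493 in the ECRS_WT pool and 597 in the knockout pool. Every direction that follows therefore rests on arrays named only by their label, and whether that probe lies in the deleted part was not tested. Between 153 and 222 probes per array had a signal over 1000 and yet failed the detection p-value, and 3 class I genes were among them: H2-D1 and the brighter probe of H2-K1 on all arrays and B2m in both diseased pools. Their signals lay far above the inferred negative controls (thresholds of 19.3 to 35.5), so their values are given. H2-K1 and H2-D1 are left out of all counts and medians based on the detection p-value. B2m is left out between the diseased pools only, since it was detected on Control_WT and counts as measured in both comparisons with that array.

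Between the 2 diseased pools, every class I presentation gene had a lower normalised level in the knockout. On the array labelled ECRS_KO all 10 genes had a lower level than on the array labelled ECRS_WT, by between 0.30 (Tapbp) and 1.21 (Psmb8) on the log2 scale. Of the 7 genes measured by detection p-value, 4 were lower by 2-fold or more, namely Psmb8, Psmb9, Psmb10 and Nlrc5, where 2.36% of the 8917 genes measured were lower by that much; none was higher, where 4.72% of all genes were. The median difference of these 7 was -1.06, against -0.04 over all genes measured. All 7 lay below 0, where 54.5% of all genes measured did. With detection judged by signal over background, an alternative added after the values had been seen, all 10 genes were measured, their median was -0.92, and 8 of the 10 were lower by 1.5-fold or more, where 8.03% of 10355 genes were. All 10 also lay below 0 under each alternative processing that gave them a value, although the sizes of dim genes varied. Each alternative also brought the arrays to a common scale. Before normalisation the Tapbp signal was higher on ECRS_KO (461) than on ECRS_WT (413), so the lower level of Tapbp rests on that scaling. Different probes of 1 gene differed by a pooled SD of 0.29 in this comparison, a measure of disagreement between probes and not between mice.

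Between health and disease in wild-type mice the normalised levels of the same genes did not share a direction. Of 8 measured genes on the array labelled ECRS_WT, 4 had a higher and 4 a lower level than on Control_WT, where 58.6% of all genes were lower. Their median difference was -0.02, against -0.09 over all 8771 genes measured. Before normalisation every class I gene had a higher signal on ECRS_WT, the brighter array, than on Control_WT. The smallest ratio was that of Psmb10, with signals of 1822 and 1660. The lower levels of Tap2, Psmb9, Psmb10 and Nlrc5 in ECRS_WT therefore rest on the scaling. Tapbp alone passed 2-fold, upward, where 3.74% of all genes did; none passed it downward, where 1.43% of all genes did. Probes of 1 gene differed by a pooled SD of 0.50 here. The array labelled ECRS_WT enters both comparisons, so a high or low value on it moves them in opposite directions, and the difference of the diseased knockout from the healthy wild type is fixed by the other two. In that last comparison 7 of 8 measured genes had a lower normalised level, where 57.3% of all genes did. Before normalisation B2m, Psmb9, Psmb10 and Nlrc5 were also lower on ECRS_KO. Tap1, Tap2 and Psmb8 instead had higher signals there (87.9, 1291 and 1265) than on Control_WT (71.5, 1024 and 1215). The lower levels of Tap1, Tap2 and Psmb8 thus rest on the scaling. The median difference of the 8 was -0.81, against -0.11 over 9086 genes. Psmb9, Psmb10 and Nlrc5 were lower by 2-fold or more, where 5.67% of all genes were, and Tapbp was higher, where 6.89% were. At 1.5-fold 6 of the 8 were lower, where 19.7% of all genes were.

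**Figure D1:**
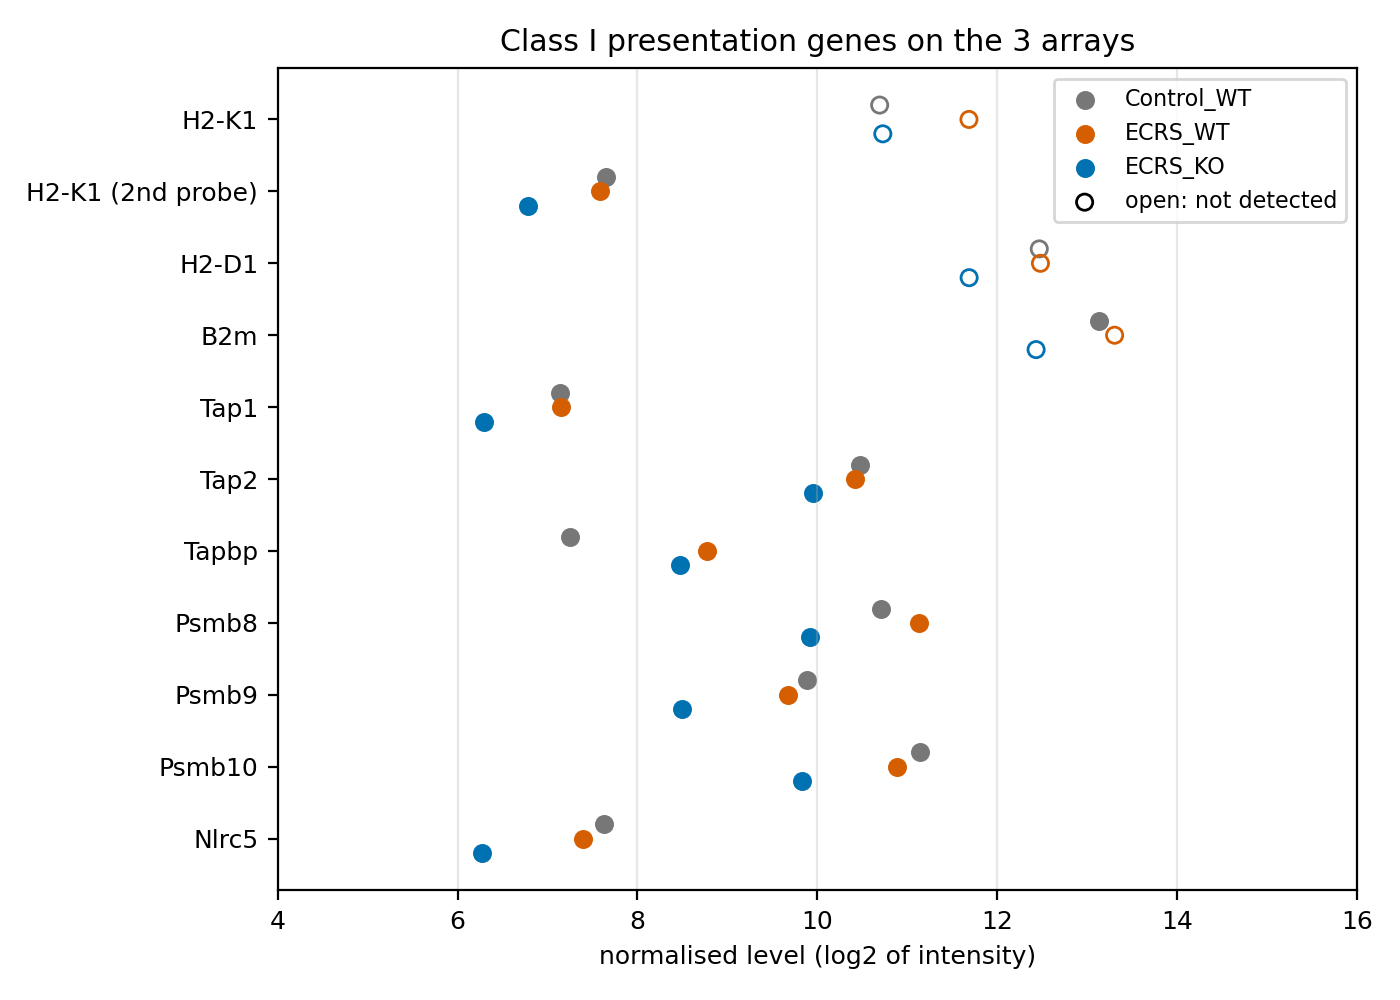
Normalised level (log2 of intensity, horizontal axis) of each class I presentation gene, 1 point per array and colour, with open circles where the probe was not detected by its detection p-value. The blue ECRS_KO point is the lowest of the 3 for every gene except Tapbp and the brighter H2-K1 probe, for which Control_WT is lowest; levels of different probes are not to be compared.

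The heavy chains come first in the order of the complex. H2-K1, which encodes the K heavy chain, had 2 probes. The brighter one had levels of 10.69 on the array labelled Control_WT, 11.69 on ECRS_WT and 10.73 on ECRS_KO, and so was high in the diseased wild-type pool alone. The difference was 0.99 between disease and health and -0.96 between knockout and wild type, both just short of 2-fold. The second probe, detected on all arrays, had levels of 7.65, 7.59 and 6.79 in the same order. Both probes were thus lower in the diseased knockout than in the diseased wild type, by 0.96 and 0.80, and they disagreed on disease against health, where the second differed by -0.06. H2-D1, the D heavy chain, had levels of 12.47 on Control_WT, 12.48 on ECRS_WT and 11.69 on ECRS_KO. The 2 wild-type pools were alike for H2-D1, with a difference of 0.01, and the knockout pool was lower than ECRS_WT by 0.79 (1.73-fold). Heavy chain genes resemble each other in sequence, and whether a probe also binds a related transcript was not tested.

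B2m, which encodes the light chain β2-microglobulin shared by all class I molecules, had levels of 13.13 in the Control_WT pool, 13.31 in ECRS_WT and 12.43 in ECRS_KO. Its signals of 7214, 9914 and 6788 were brighter than at least 98.67% of the probes of each array. The knockout pool was again the lowest, with B2m lower than in ECRS_WT by 0.87 (1.83-fold), while the 2 wild-type pools differed by 0.18. The light chain and both heavy chains were therefore lower in the diseased knockout by similar amounts, between 0.79 and 0.96.

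Tap1 and Tap2 encode the chains of the peptide transporter. Tap1 had levels of 7.14 on Control_WT, 7.15 on ECRS_WT and 6.30 on ECRS_KO, and Tap2 had 10.48, 10.42 and 9.96. In both genes the wild-type pools lay close together, with differences of 0.02 and -0.06, and the knockout pool was lower than ECRS_WT, by 0.86 (1.81-fold) for Tap1 and by 0.46 (1.38-fold) for Tap2. Neither reached 2-fold. Tap1 is dim, with signals of 71.5 to 121, and with limma's own background inference its difference shrank to -0.10.

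Tapbp, the gene of tapasin, had a pattern of its own among the 10. Its level was 7.24 on the array labelled Control_WT, 8.78 on ECRS_WT and 8.48 on ECRS_KO, so the healthy pool was low and both diseased pools were high. Tapbp was 2.89-fold higher in ECRS_WT and 2.35-fold higher in ECRS_KO than in Control_WT, while the 2 diseased pools differed by -0.30. Both calls were lost with limma's own background inference, where the log2 differences from health were 0.51 and 0.36, and the second was lost with the authors' normalised values, at 0.89.

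All 3 inducible proteasome subunits passed 2-fold between the diseased pools. Psmb8, the chymotrypsin-like subunit β5i, had levels of 10.71 on Control_WT, 11.13 on ECRS_WT and 9.92 on ECRS_KO. It was 2.32-fold lower on ECRS_KO than on ECRS_WT, and its difference between disease and health was 0.43. Psmb9, the β1i subunit, had levels of 9.89, 9.68 and 8.49 and was 2.28-fold lower on ECRS_KO than on ECRS_WT. Psmb10, the β2i subunit, had 11.15, 10.89 and 9.83 and was 2.08-fold lower. After normalisation Psmb9 and Psmb10 were not higher in the diseased wild type than in health, with differences of -0.21 and -0.26. They stood 2.64-fold and 2.49-fold lower in the diseased knockout than in the healthy wild type. With arrays scaled on their medians, which moves the median difference of all genes to 0.14, Psmb8 alone stayed past 2-fold, at -1.02, and Psmb9 and Psmb10 were at -0.97 and -0.87.

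The subunits that these replace in the constitutive proteasome had smaller differences, of mixed sign. Psmb5, the counterpart of Psmb8, differed by 0.04 between the diseased pools, Psmb6, the counterpart of Psmb9, by -0.27, and Psmb7, the counterpart of Psmb10, by 0.30. Each inducible subunit therefore moved downward against its counterpart from the ECRS_WT to the ECRS_KO array: by 1.25 for Psmb8 against Psmb5, 0.92 for Psmb9 against Psmb6 and 1.36 for Psmb10 against Psmb7 on the log2 scale. Between health and disease in wild-type mice these shifts had no shared sign, at 0.42, -0.28 and -1.01. The last of these rests on Psmb7, whose level was higher by 0.76 in the diseased wild type and by 1.06 in the diseased knockout than in health. A difference between 2 probes' shifts does not depend on a common scaling of an array, but background correction and quantile normalisation change bright and dim probes differently. These shifts were computed under the reported processing only.

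**Figure D2:**
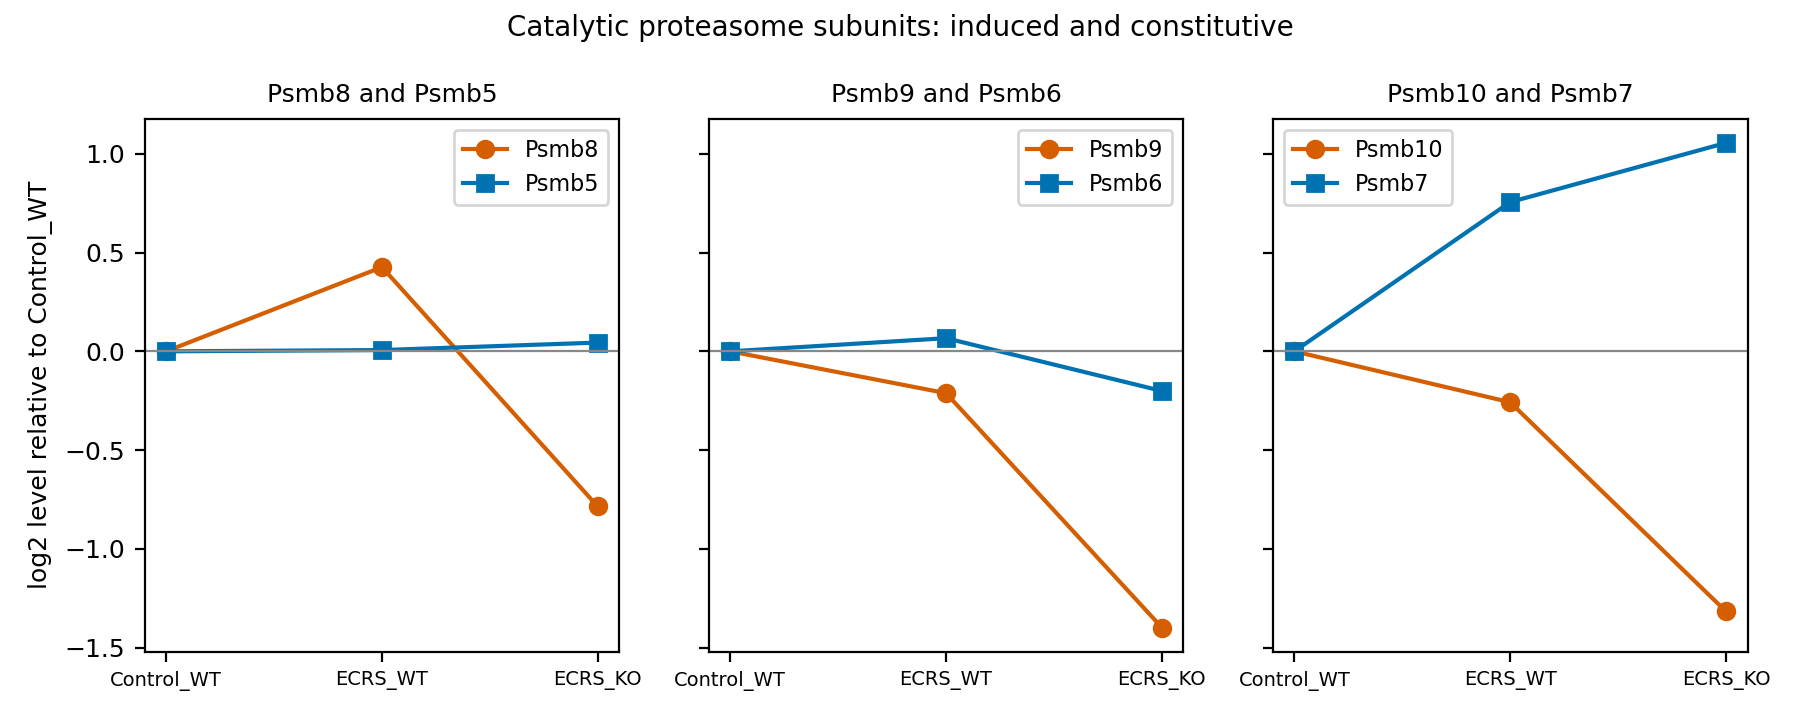
Log2 level of each inducible catalytic subunit (orange circles) and its constitutive counterpart (blue squares) relative to the array labelled Control_WT, with 1 value per array. Psmb8, Psmb9 and Psmb10 lie at -0.79, -1.40 and -1.32 on ECRS_KO, while Psmb5, Psmb6 and Psmb7 lie at 0.04, -0.20 and 1.06.

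Nlrc5 encodes the transactivator that assembles on the promoters of class I genes, as CIITA does on those of class II. Its levels were 7.62 on Control_WT, 7.39 on ECRS_WT and 6.27 on ECRS_KO. The wild-type pools differed by -0.23, and the knockout pool was 2.17-fold lower than ECRS_WT and 2.55-fold lower than Control_WT. Nlrc5 is dim, with signals of 86.3 to 146, and between the diseased pools its difference was -0.55 with the authors' normalised values and -0.14 with limma's own background inference, both short of 2-fold.

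**Figure D3:**
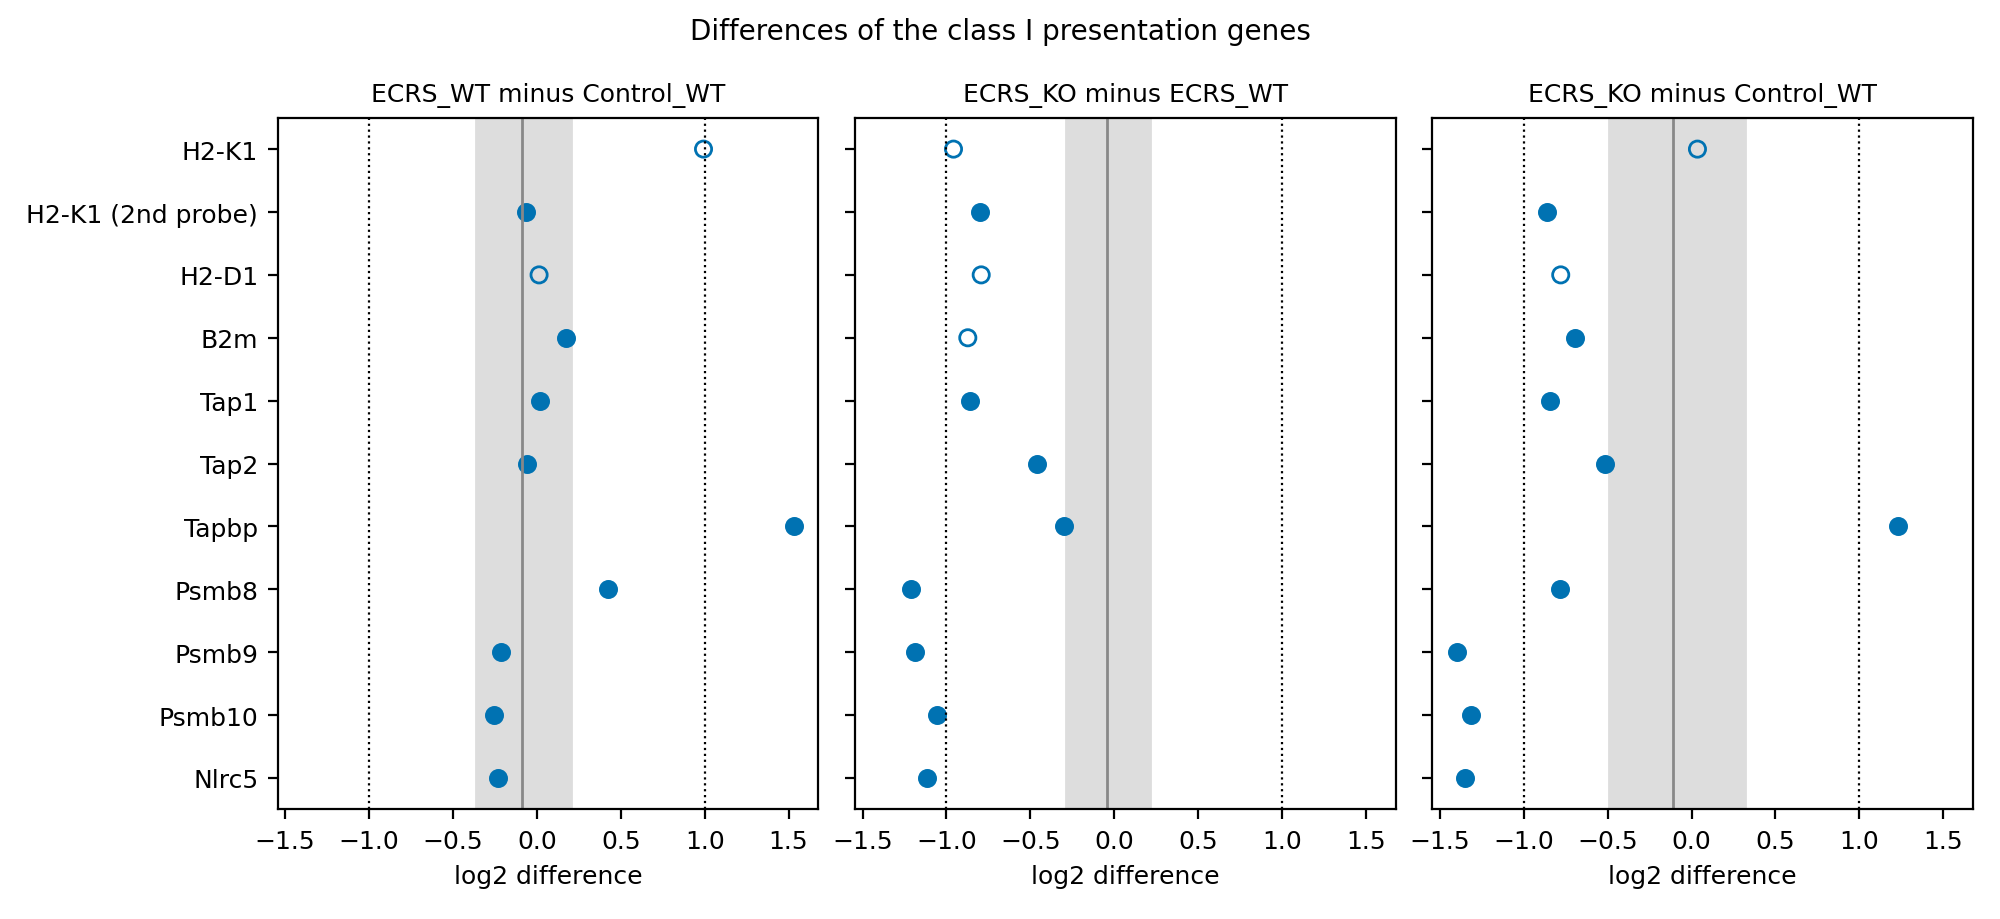
Log2 difference of each class I presentation gene in the 3 comparisons, 1 point per probe, open where the probe was detected on neither array. The grey band spans the interquartile range of all genes measured, with their median as a line, and dotted lines mark 2-fold; all points of ECRS_KO minus ECRS_WT lie left of 0, between -0.30 and -1.21, and Tapbp at 1.53 is the rightmost point of ECRS_WT minus Control_WT.

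Other genes of the pathway were followed in lists of related function. Among other class I heavy chains, 6 of 7 measured genes had a lower level in ECRS_KO than in ECRS_WT, with a median difference of -0.71, although 1 alone, H2-Q6, passed 2-fold. H2-Q6, a Qa-region heavy chain, had signals of 53.9 on Control_WT, 275 on ECRS_WT and 86.5 on ECRS_KO, high in the diseased wild-type pool alone, with a difference of 1.40 between disease and health and -1.94 between knockout and wild type. H2-M3, which presents N-formylated peptides, differed by 0.80 and -0.90 in the same comparisons. H2-T22 and H2-T9, ligands of some γδ T cells, differed between the diseased pools by -0.61 and -0.57.

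Class I-like molecules, which share the fold but serve other ends, gave 0 calls in either direction between the diseased pools, with 5 of 6 measured genes below 0 and a median of -0.24. Fcgrt, the heavy chain of the neonatal Fc receptor and a partner of β2-microglobulin, differed by -0.23, Hfe, which acts in iron uptake, by 0.19, Azgp1 by -0.30 and Mill2 by -0.48. Of the chaperones and enzymes of peptide loading, 4 of 5 measured genes lay above 0, with a median of 0.11 and 0 calls. Pdia3, the disulfide isomerase bound to tapasin, differed by 0.56, Ganab, a glucosidase that trims the sugars of new glycoproteins, by 0.14, Uggt1, which checks their folding, by 0.01, and the tapasin relative Tapbpl by -0.18. Among cytosolic peptidases, 3 of 6 were measured and Blmh, bleomycin hydrolase, was higher by 1.07, while Thop1 and Nrdc differed by 0.31 and -0.18.

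Proteasome genes beyond the inducible subunits gave 0 calls between the diseased pools. Other core subunits had a median of 0.00 over 7 measured genes and a range from -0.22 to 0.05, Psmb2 at the lower end, with Psma2 at 0.05, Psmb4 at -0.14 and Psmb3 at 0.00. Of the activators and assembly factors, Psme1, a subunit of the interferon-inducible PA28 cap, was the lowest at -0.67. Its partner Psme2 differed by -0.20, after 0.95 between disease and health, Psme3 by 0.11 and Pomp, which assembles the core particle, by -0.07.

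Regulators of MHC promoters had a median of -0.23 between the diseased pools over 9 measured genes. Ciita, the class II transactivator, was lower by 1.21 and was the 1 call among them. Irf1, an interferon-induced activator of class I promoters, had a signal of 156 in the Control_WT pool, where it was not detected, 306 in ECRS_WT and 223 in ECRS_KO, and differed by -0.91 between the diseased pools. Irf9 differed by -0.23, Irf2 by 0.10, Nfya, a subunit of the CCAAT-binding factor, by -0.09, and Nfyb by 0.22. In disease against health 9 of 10 measured regulators had a difference above 0, where 41.2% of all genes did. None was called, where 3.74% of all genes were higher by 2-fold or more. Irf9 was at 0.73, and Nfya, undetected on Control_WT, was higher by 0.70 from its own level there.

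Interferon gamma itself was not detected on any array: the signal of Ifng was -7.08 on Control_WT, -0.12 on ECRS_WT and -20.3 on ECRS_KO, at the level of negative controls. Of its signalling genes, the receptor chain Ifngr1 differed by -0.49 between the diseased pools and the feedback inhibitor Socs1 by -0.06. All 7 measured genes of the list of interferon gamma induced genes had a lower level in ECRS_KO than in ECRS_WT, with a median of -0.77, and 3 passed 2-fold. Cxcl9, a chemokine that attracts activated T cells, was lower by 2.07, and the immunity-related GTPases Igtp and Irgm2 by 1.18 and 1.01. Gbp3, a guanylate-binding protein, differed by -0.69, and Irf8, undetected on ECRS_KO, was lower by 0.73 by its own level there. Genes induced foremost by type I interferon gave 0 calls over 5 genes, with a median of -0.28: Oasl2 differed by -0.86, Irf7 by -0.50, Ifit2 by -0.01 and Rsad2 by 0.05. MHC class II genes, given for comparison, had 5 calls among 6 genes and a median of -1.38, with H2-Aa at -1.91, H2-Eb1 at -1.48, Cd74 at -1.40, H2-DMb1 at -1.36 and H2-Ab1 at -1.11. The lists were chosen with results of these data known, and their counts and medians describe these arrays.

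**Figure D4:**
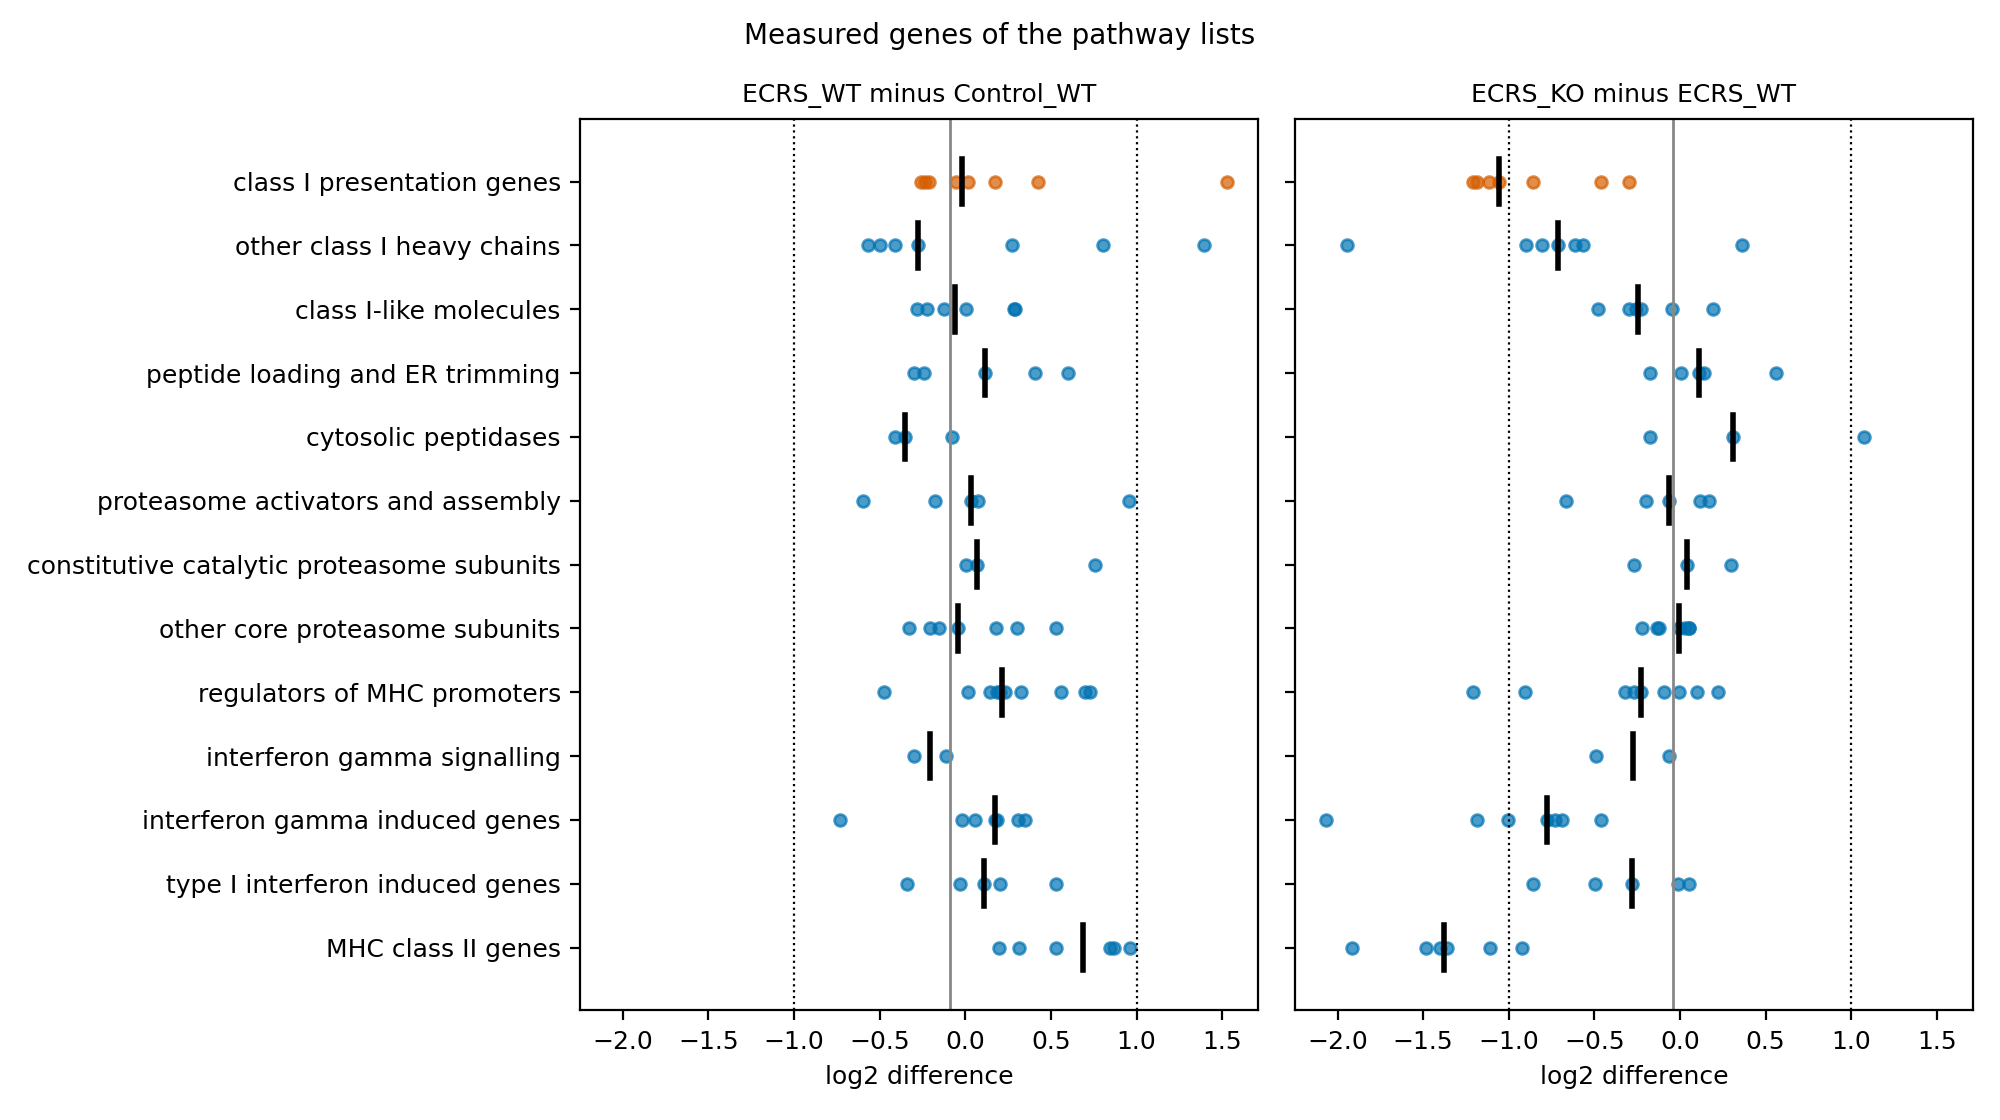
Log2 differences of the measured genes of each pathway list, 1 point per gene, with the list median as a black bar, the median of all genes as a grey line and 2-fold as dotted lines. In ECRS_KO minus ECRS_WT the class I presentation genes (orange, median -1.06), the class II genes (-1.38), the interferon gamma induced genes (-0.77) and the other class I heavy chains (-0.71) lie to the left, while other core proteasome subunits centre on 0.00.

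Markers of several leukocyte types were also lower in the diseased knockout pool. All 4 measured T cell markers were lower by 2-fold or more, with a median of -2.01 and a summed linear level of 1524 on Control_WT, 1729 on ECRS_WT and 474 on ECRS_KO; Cd3d and Cd3g, chains of the T cell receptor complex, were lower by 2.14 and 1.93. Of 6 measured macrophage markers, 4 were lower by 2-fold or more, with a median of -1.41 and summed levels of 3953, 6921 and 2516, and the complement genes C1qb and C1qc were lower by 1.77 and 1.53. The CD8 T cell and natural killer cell list had 4 measured genes of 10 with a probe and a median of -0.78. Its Cd8b1, a chain of the CD8 co-receptor, differed by -0.59. Nkg7, not detected by its p-value on ECRS_KO, was 3.40-fold lower by its own level there. Gzma, Gzmb and Prf1, the genes of the killing granules, had signals near or below 0 on all arrays. B and plasma cell markers had a median of -0.95 over 2 genes, with Mzb1 at -1.39 and Cd79b at -0.51, and dendritic cell markers one of -0.93 over 3 genes, with Itgae lower by at least 2.89-fold and Zbtb46 at 0.84. The part of these cell types in the lower levels of class I genes was not tested. In whole tissue, fewer cells of a type and less RNA per cell cannot be told apart.

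The other marker lists held 0 genes lower by 2-fold or more between the diseased pools, and several had medians below 0. Neutrophil markers had a median of 0.16 over 8 genes, with Ltf at 0.16 and S100a8 at -0.03, and the erythroid list one of 0.01 over 3 genes. Eosinophil markers were measured for 1 gene in this comparison, Prg2 at -0.14. Epx, Ccr3 and Siglecf, which define the cell, were not detected on any array. From Control_WT to ECRS_WT, Prg2 differed by -0.96 and Il5ra, undetected on ECRS_WT, by -0.55 from its own level there. Both were thus lower in the wild-type pool labelled with eosinophilic disease than in the healthy pool. In that comparison 7 of 8 neutrophil markers also lay below 0, with a median of -0.95, and 4 were lower by 2-fold or more. Whether the arrays carry the right labels was not tested. Between the diseased pools, airway epithelial markers had 5 of 6 measured genes below 0, a median of -0.51 and 0 calls. The brightest, Cyp2f2 and Cbr2, differed by -0.05 and 0.11, while the ciliated cell factor Foxj1 differed by -0.88 and the keratins Krt5 and Krt18 by -0.81 and -0.66, sizes that overlap those of the class I genes, and the adhesion gene Cdh1, undetected on ECRS_KO, was lower by at least 0.35. Pan-leukocyte markers lay below 0 in 4 of 4 genes with a median of -0.51 (Laptm5 -0.52, Coro1a -0.82), endothelial markers in 5 of 5 genes with one of -0.31 (Pecam1 -0.31, Emcn -0.68) and fibroblast markers in 3 of 4 genes with one of -0.19 (Dcn -0.31, Pdgfra -0.31). Olfactory sensory neuron markers were the opposite, with 7 of 8 genes higher by 2-fold or more on the array labelled ECRS_KO, a median of 1.80 and summed levels of 30049 on Control_WT, 28108 on ECRS_WT and 63019 on ECRS_KO (Gng13 1.47, Omp 0.15). Cartilage and bone markers were higher as well, with a median of 1.13 over 5 genes (Col2a1 1.98, Acan 1.21). The part of these other tissues and of the epithelium in the class I differences was not tested. Reference genes had a median of -0.09 over 4 genes, with Actb at -0.26 and Ppia at 0.09.

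**Figure D5:**
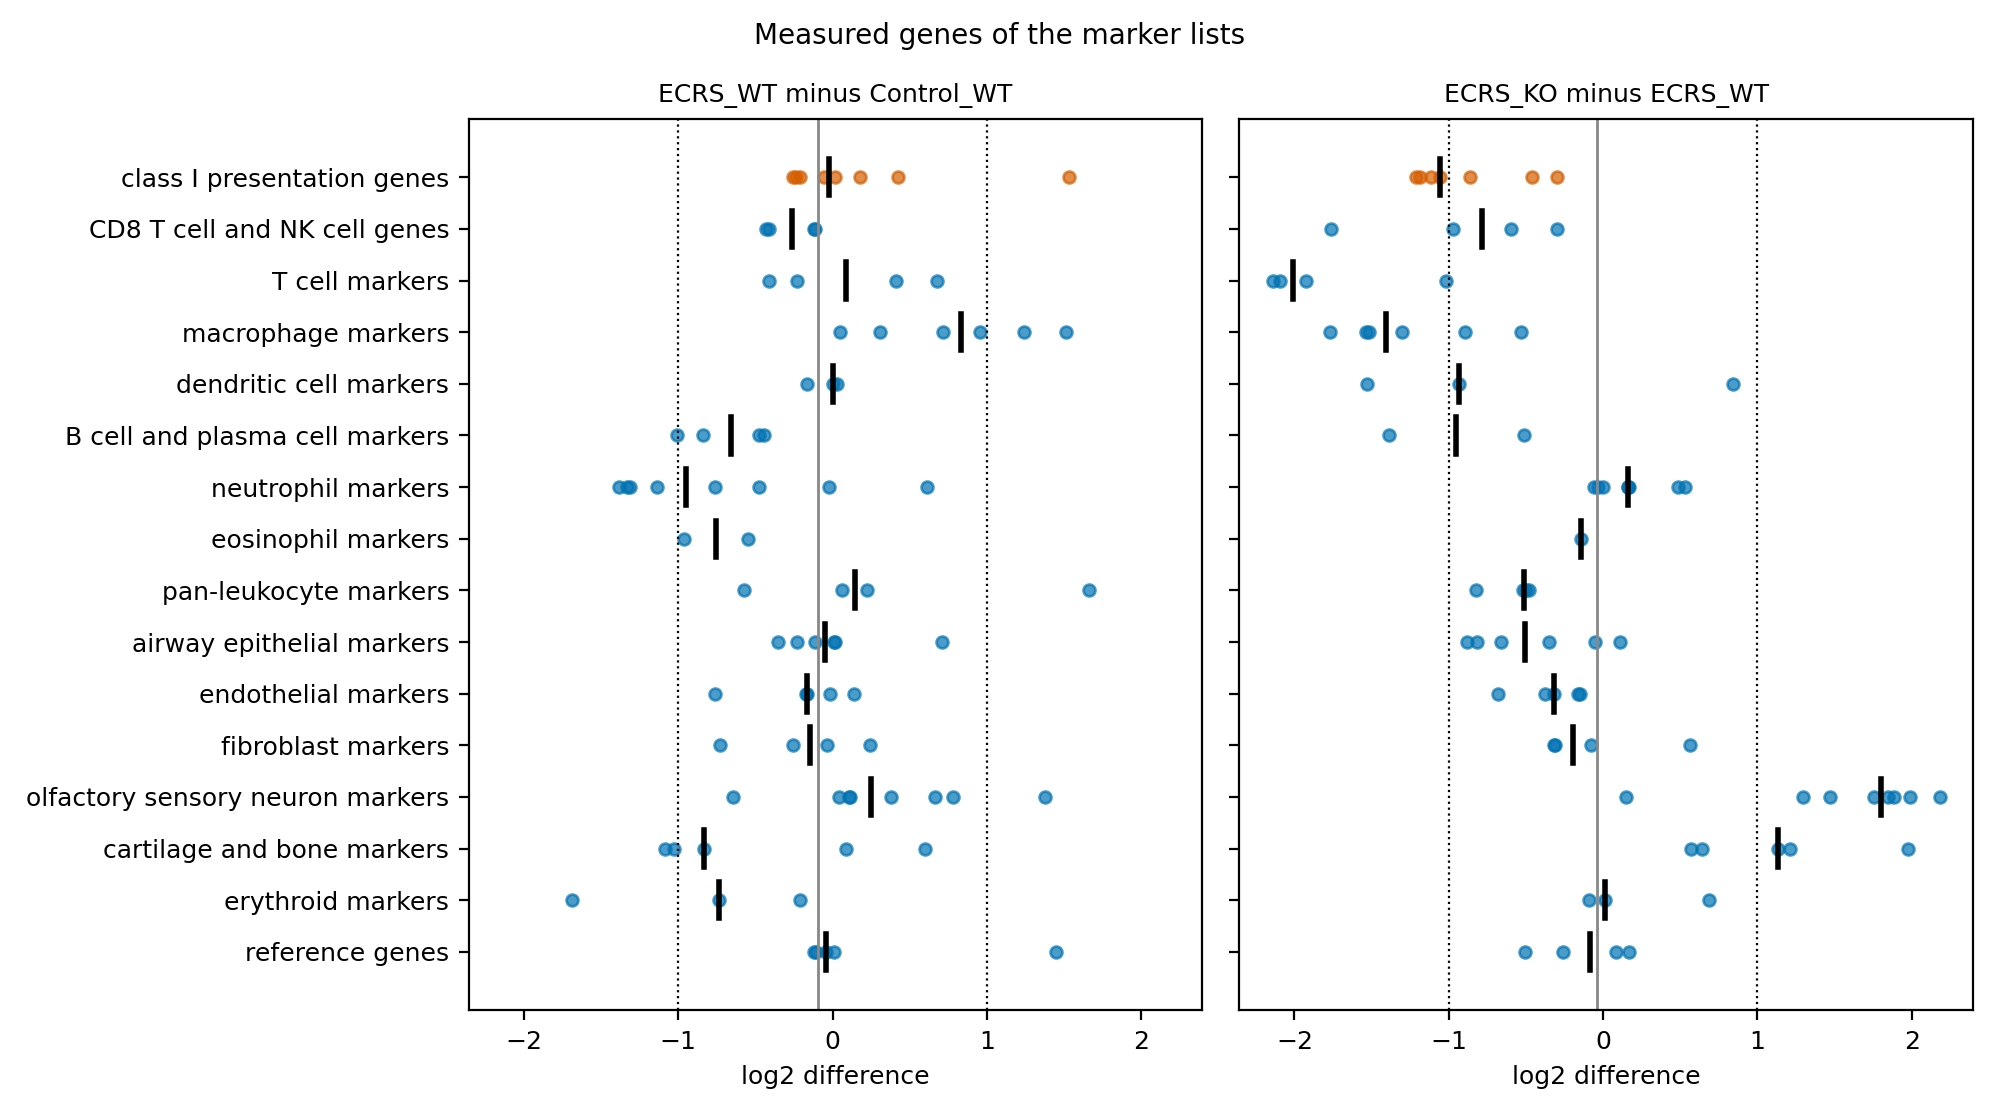
Log2 differences of the measured genes of each marker list, 1 point per gene, with list medians as black bars, the median of all genes as a grey line and 2-fold as dotted lines. In ECRS_KO minus ECRS_WT the T cell (median -2.01) and macrophage (-1.41) lists lie further left than the class I presentation genes (orange, -1.06), and the olfactory neuron list (1.80) lies to the right.

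Of the 10 genes, 7 lie on chromosome 17 in the MHC, from Tapbp to H2-D1 in RefSeq's order, a stretch that holds 132 genes in all. The other 57 measured genes of that stretch had a median difference of -0.04 between the diseased pools, that of all genes, whereas the 5 class I genes measured there had one of -0.86. Among these neighbours 5 were lower by 2-fold or more and 0 were higher: the class II genes H2-Aa, H2-Ab1, H2-Eb1 and H2-DMb1, and C2, a complement protease. B2m, Psmb10 and Nlrc5 lie on other chromosomes, and their differences of -0.87, -1.06 and -1.12 fall within the range of the 7 in the MHC.

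The 5 genes whose levels over the 3 arrays lay nearest to the median pattern of the 7 class I genes detected on all arrays were sought among 7052 candidates. That median pattern, centred on each gene's mean, was 0.31 on Control_WT, 0.33 on ECRS_WT and -0.63 on ECRS_KO. Nearest was Irgm2, at a distance of 0.036 log2 units, followed by Gngt2, a G protein gamma subunit, at 0.052, Tbx2, a T-box factor, at 0.053, Gdpd5 at 0.055 and Rab32, a small GTPase of lysosome-related organelles, at 0.056. A likeness over 3 arrays is a loose one, since a pattern has only 2 free values once centred.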

How the data were processed

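The deposited table of signal intensity holds, per the file headers, a background-subtracted signal and a detection p-value for each of 35226 probes on each of 3 arrays. The authors' normalised intensity, made on a linear scale, is in a second deposited table. BeadStudio is named in the submitters' processing notes, with no version; the genome build is not given in the sources used here. For Control_WT the authors' values equal the signal plus a constant of 70.6.

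From the signals, limma 3.58.1 in R 4.3.3 computed normexp background correction (offset 16), quantile normalisation and log2. The mean and SD of negative controls came from the median signal in 100 bins of detection p-value, since bright probes with a high detection p-value raise limma's own inference (SDs of 260 to 361, against 9.23 to 16.9). Single gene symbols were available for 20571 probes; the 10 with several and the 14645 without one were not used for genes. A gene with several probes was read from the brightest on average. Where the dimmer side was undetected, it was set to the higher of its own and the lowest detected level. The fold is a lower bound where the lowest detected level was the higher.

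With 1 array per group no test was made, and counts and medians stand beside those over all genes. The named genes are all class I presentation genes, Scgb1a1, of each pathway list the 2 largest differences in either main comparison and the 2 brightest genes, of each marker list the 2 brightest, and the 5 nearest patterns. These genes and the 27 lists were chosen with earlier results of these data known. Other genes of a count of 5 or fewer, the counterparts of the inducible subunits, 4 epithelial markers and genes given as undetected were named after their values were seen. Background correction and normalisation were tested on simulated data, which held no bright probes with a high detection p-value. The later steps were not tested in this way. Alternatives numbered 11 planned and 1 added. Motifs and tables were computed with Python 3.11.15, numpy 2.4.6 and pandas 2.3.3.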

Additional observations from a re-analysis of the deposited data

How the results depend on the processing

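All 10 class I presentation genes stayed lower in the ECRS_KO than in the ECRS_WT array in every alternative that gave them a value. Each of these alternatives brought the arrays to a common scale. Counts and sizes moved more. With limma's own inference of the negative controls the genes lower by 2-fold in that comparison numbered 2, their median was -0.63, and the gene higher by 2-fold against Control_WT was lost in both diseased groups, leaving 0 and 0; that inference sets a much larger background, and it shrinks dim probes. With the authors' normalised values the median between the diseased pools was -0.55 and the count of genes higher in ECRS_KO than in Control_WT was 0. Scaling on the array medians left 1 gene lower by 2-fold between the diseased pools, and at 1.5-fold 6 were lower in ECRS_KO than in Control_WT, where 19.7% of all genes were. Signs that turned were those of small differences. In ECRS_WT against Control_WT, H2-D1 and B2m turned with scaling on probes detected on all arrays. Tap1 turned there with the authors' values, and Tap2 and Nlrc5 with median scaling. In ECRS_KO against Control_WT the brighter H2-K1 probe turned with scaling on probes detected on all arrays. The H2-K1 value was also negative as the mean of its 2 probes, since the second probe was at -0.86. The cause of the other turns was not tested. Median scaling also shifted the median of all genes from -0.09, -0.04 and -0.11 to 0.10, 0.14 and 0.26 in the comparisons ECRS_WT with Control_WT, ECRS_KO with ECRS_WT and ECRS_KO with Control_WT. Its counts of genes higher and lower were 511 and 43, 562 and 126, and 1272 and 129, against 328 and 125, 421 and 210, and 626 and 515 as reported. Under limma's own inference they were 108 and 41, 143 and 81, and 211 and 148, with no background correction 539 and 375, 598 and 391, and 891 and 1001, with an offset of 50 they were 201 and 42, 284 and 121, and 429 and 250, and with the authors' values 128 and 42, 212 and 95, and 293 and 221. Dim genes such as Tap1 and Nlrc5 are limited by signal over background. No paired analysis was possible because each group has 1 array.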
